A study of Homo sapiens with 6 samples.

Results

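The genes encoding the cytosolic translation initiation and elongation factors, with their dedicated binding proteins and modifying enzymes, were examined in HCT116 cells, a human colorectal carcinoma line. Members were the genes of the deposited table whose symbol begins with EIF1 to EIF6, EEF1 or EEF2, without the eIF2 alpha kinases named EIF2AK. They numbered 68 of the 24154 genes. Libraries came from cells given an siRNA against CPT2 (CPT2 knockdown, n = 3) or a negative control siRNA (NC, n = 3), both for 48 h. The CPT2 enzyme, carnitine palmitoyltransferase 2, sits on the inner membrane of mitochondria and hands long-chain fatty acids over for oxidation there. RNA was captured on oligo(dT) beads, copied from random hexamers and sequenced. The comparison asks how expression differs when CPT2 is targeted. One line was used with an siRNA known only by its target, and the labels do not say whether the libraries of a group came from separate cultures. The p-values therefore cover the spread of these libraries alone and that spread can be technical.

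Translation starts when eIF2, loaded with GTP and initiator tRNA, joins the small ribosomal subunit together with eIF1, eIF1A, eIF3 and eIF5. The eIF4F complex (the cap-binding protein eIF4E, the scaffold eIF4G and the helicase eIF4A) brings in the mRNA, and 4E-BP proteins hold eIF4E away from eIF4G when mTORC1 is inactive. Elongation then uses eEF1A to deliver aminoacyl-tRNA, the eEF1B subunits to recharge it, eEF2 to translocate the ribosome and eIF5A to help it past difficult peptide bonds. Most of this control acts on the proteins or on the use of their mRNAs, which RNA levels do not measure.

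Libraries held 28353790 to 29449380 counts. CPT2 itself had 492, 597 and 553 counts in CPT2 knockdown replicates 1, 2 and 3, against 709, 881 and 911 counts in NC replicates 1, 2 and 3. The groups did not overlap, and the log2 fold change of knockdown over NC was -0.44 (edgeR adjusted p = 0.338, SE 0.17), so the targeted gene was lower in each knockdown library and not called. Several features differed between the libraries. Transcripts of mitochondrial DNA took 8.99% to 17.0% of counts in the knockdown and 10.002% to 10.8% in NC, with replicates 1 and 2 of the knockdown above every other library. Of 14 listed transcripts retained in the nucleus or rich in introns, a sign of RNA quality, 10 were measured. Of these, 9 had a log2 fold change below 0 (median -0.41). They are poor in GC (median 40.8%), and their median was -0.11 with the GC and length offsets described below. All annotated genes under 42% GC had a median of -0.37 without offsets. The summed level of the 10 was 792, 1245 and 1056 CPM in the knockdown libraries, against 1151, 1484 and 1264 CPM in NC. CPT2 knockdown replicate 1 was the lowest of all libraries in that sum, and it stood apart from the other libraries in the members as well, as given below with and without it. Of the 5 epithelial markers, KRT8 and KRT18 were abundant. EPCAM (84 to 121 counts a library), CDH1 (26 to 91) and KRT19 (6 to 39) were low. The immune marker LYZ and the fibroblast marker LUM were at 0 in every library. The 5 epithelial markers summed to 1717 to 2659 CPM in the knockdown and 1553 to 1812 CPM in NC, nearly all of it KRT8 and KRT18. Their log2 fold changes were above 0 for 4 and below 0 for CDH1 (-0.45). The 5 fibroblast markers summed to 76.3 to 128 CPM in the knockdown and 57.6 to 77.5 CPM in NC, nearly all of it COL1A1. The 5 endothelial markers summed to 53.6 to 70.3 CPM in the knockdown and 73.0 to 89.5 CPM in NC, most of it CDH5. The part of these features in the results below was not tested. Transcript GC content is described further below. In bulk RNA, fewer cells and less RNA per cell cannot be told apart.

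Expression of the factors spanned 4 orders of magnitude. The members together took 1.68%, 1.96% and 2.14% of all counts in CPT2 knockdown replicates 1, 2 and 3, against 2.09%, 2.00% and 2.10% in NC replicates 1, 2 and 3. Per unit length (FPKM), EEF1A1 led with 2236 ± 314 FPKM in the knockdown and 2572 ± 103 FPKM in NC (SD, n = 3 each, as for every ± below). EEF1G and EEF2 followed, and the lowest measured member was EIF5A2 with 0.191 ± 0.119 FPKM in the knockdown and 0.290 ± 0.117 FPKM in NC. Of the 68 members, 63 had enough counts to be tested among 15302 genes. EIF4EBP3 was below the filter, with 20, 9 and 8 counts in the knockdown and 7, 5 and 5 in NC, and its exons lie mostly within the readthrough gene ANKHD1-EIF4EBP3. EIF4E1B, EIF1AY and the readthrough genes EEF1E1-BLOC1S5 and EEF1AKMT4-ECE2 were at 0 in all libraries.

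**Figure D1:**
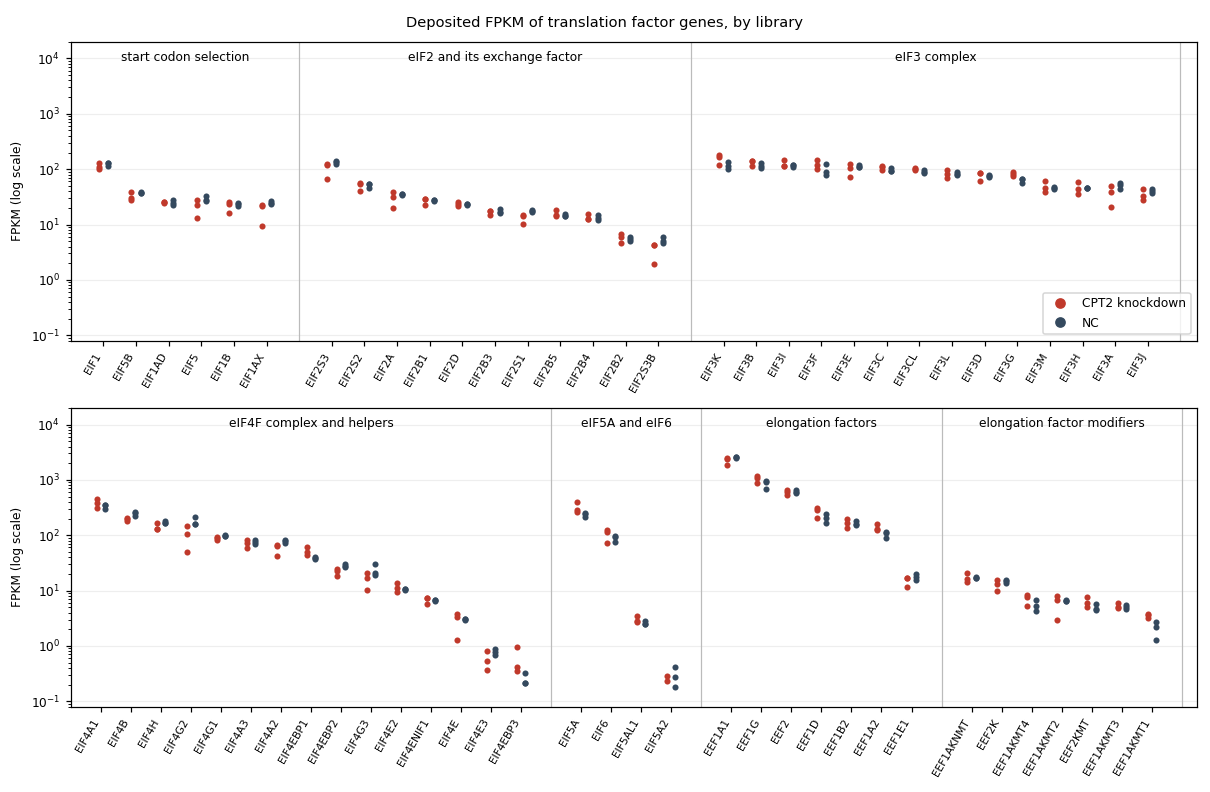
Deposited FPKM (log scale) of the 64 members with counts, 1 point per library, grouped by role and ordered by mean level, with CPT2 knockdown in red on the left of each gene and NC in dark blue on the right. EEF1A1 stands highest, near 2000 FPKM, and the groups overlap for most genes.

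No translation factor gene passed the test. By edgeR's quasi-likelihood test with Benjamini-Hochberg adjustment over all genes, 0 of 63 members were called at an adjusted p of 0.05, where the background was 0.0131% (2 of 15302 genes). DESeq2 called 0 of the 53 members to which it gave an adjusted p, with a background of 0.166%. The authors' deposited table calls 0 of 63 members up or down, where it calls 4.15% of 13635 genes. Those calls carry a 1.5-fold cut, and the p-values deposited with them are unadjusted. That share is therefore not of the same kind as the edgeR and DESeq2 shares before it. At an unadjusted p below 0.05, edgeR had 7 of 63 members (11.1%), all with more RNA in the knockdown, and the share over all genes was 14.5%, made of 9.18% higher and 5.29% lower. DESeq2 had 9 of 64 members there, with a background of 13.8%. The edgeR count of 7 depended on single libraries: it was 22 without CPT2 knockdown replicate 2, where the share over all genes was 35.9%, 1 without NC replicate 2 (3.23% of all genes) and 3 without NC replicate 3 (7.83%). The 7 genes were EIF3G, EEF1AKMT1, EIF4EBP1, EEF1A2, EIF5A, EEF1D and EIF3K. The CPM of the groups did not overlap for 18 of 63 members, 11 higher in the knockdown and 7 lower, where the background was 24.4%, with 12.2% in each direction. The members' log2 fold changes ran from -0.61 to 0.90, with a median of 0.10 beside 0.01 for all genes, and 40 of 63 were above 0, beside 50.7% of all genes. Scaled by library size alone, 26 of 63 were above 0, beside 39.1% of all genes, as that scaling moved the median of all genes to -0.13. Under that scaling 14 of the 63 members changed sign, all with a log2 fold change between 0.005 and 0.14 in the edgeR test, among them EIF1, EEF2, EEF1B2, EIF2B1, EIF3H, EIF3L and EEF1AKNMT. These shares are a description, with no test.

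**Figure D2:**
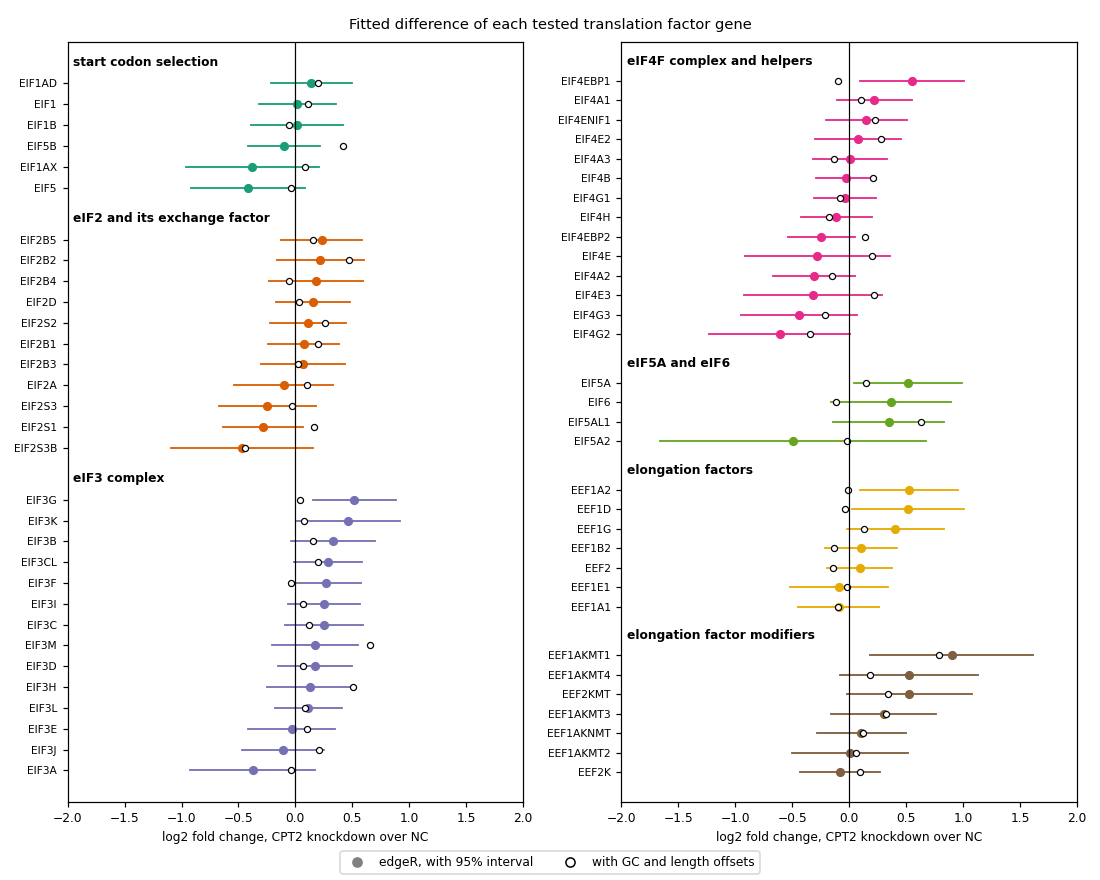
Log2 fold change of CPT2 knockdown over NC for the 63 tested members by role, ordered within each role (filled points, with the 95% interval of the edgeR fit as a line), and the same after offsets for transcript GC content and length (open points). The filled points run from -0.61 for EIF4G2 to 0.90 for EEF1AKMT1, and the open points of EIF4EBP1, EIF3G, EEF1A2, EIF1AX and EIF4G2 lie nearer to 0 than their filled points.

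Of the 6 tested genes grouped under start codon selection 0 were called. EIF1AD is grouped with these factors without being one of them. The log2 fold change was below 0 for EIF1AX, EIF5 and EIF5B and above 0 for EIF1, EIF1B and EIF1AD. EIF1AX encodes eIF1A, which with eIF1 holds the scanning ribosome open until the start codon is met. It measured 49.9, 104 and 103 CPM in CPT2 knockdown replicates 1, 2 and 3, against 109, 116 and 109.6 CPM in NC replicates 1, 2 and 3. The groups did not overlap, but CPT2 knockdown replicate 1 lay far below the other knockdown libraries, which were close to NC. The log2 fold change was -0.38 (edgeR adjusted p = 0.416, SE 0.26, 95% interval -0.96 to 0.20), and -0.12 without that library. EIF5, the GTPase-activating protein of eIF2, had the same order, with 84.2, 152 and 139 CPM in the knockdown libraries, against 156, 188 and 157 CPM in NC. The log2 fold change was -0.42 (edgeR adjusted p = 0.350, SE 0.22), and -0.21 without replicate 1 of the knockdown. EIF1, the most abundant of the group per length, averaged 113 ± 12.8 FPKM in the knockdown and 124 ± 8.35 FPKM in NC and had a log2 fold change of 0.02 (edgeR adjusted p = 0.953, SE 0.15) on counts, and -0.06 without replicate 1 of the knockdown. EIF5B, which joins the ribosomal subunits, was at -0.10.

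Of the 11 tested genes grouped with eIF2 and its exchange factor eIF2B, 0 of 11 were called, with a median log2 fold change of 0.07. The 11 include EIF2A and EIF2D, which are subunits of neither. EIF2S1 encodes eIF2 alpha, the subunit phosphorylated in the integrated stress response. It measured 53.9, 71.0 and 67.9 CPM in CPT2 knockdown replicates 1, 2 and 3, against 79.6, 80.4 and 74.9 CPM in NC replicates 1, 2 and 3. Every knockdown library was below every NC library, with a log2 fold change of -0.28 (edgeR adjusted p = 0.355, SE 0.16, 95% interval -0.64 to 0.07), and -0.18 without replicate 1. EIF2S3 (eIF2 gamma, the GTP-binding subunit) was the most abundant per length, with 67.3, 125 and 119 FPKM in CPT2 knockdown replicates 1, 2 and 3, against 122, 139.7 and 137 FPKM in NC replicates 1, 2 and 3. Replicate 1 of the knockdown was lowest and the groups overlapped, with a log2 fold change of -0.25 (edgeR adjusted p = 0.459, SE 0.19) on counts, -0.07 without replicate 1 and -0.38 without replicate 2. EIF2S3B is a copy of EIF2S3 with 98.24% identical coding bases and stretches of up to 205 identical bases, so the counting could move reads between them. It was much lower, at 3.79, 7.17 and 7.24 CPM in the knockdown libraries, against 7.57, 9.73 and 7.98 CPM in NC, and its log2 fold change was -0.47 (edgeR adjusted p = 0.370, SE 0.27), and -0.24 without replicate 1. The pair counted together gave -0.25 (edgeR adjusted p = 0.453, SE 0.19), which is the value of EIF2S3. EIF2B5, the catalytic subunit of eIF2B, measured 44.5, 39.3 and 48.3 CPM in the knockdown libraries, against 37.8, 36.1 and 38.8 CPM in NC. Its groups did not overlap in the other direction, with a log2 fold change of 0.23 (edgeR adjusted p = 0.417, SE 0.16). The other eIF2B subunits, EIF2B1 to EIF2B4, lay between 0.07 and 0.22, EIF2S2 (eIF2 beta) at 0.11, and EIF2A and EIF2D, which can deliver initiator tRNA without eIF2, at -0.10 and 0.16.

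The eIF3 complex, the multisubunit scaffold that binds the small subunit, had 11 of its 14 tested genes above 0 (0 of 14 called; median 0.21, beside 0.01 for all genes). That median was 0.07 when scaled by library size alone, beside -0.13 for all genes. It was 0.09 once each library had an offset for GC content and length, as described below. EIF3G, an RNA-binding subunit of eIF3, had the smallest p of its role (chr19:10115017-10119918, minus strand, GENCODE 29 on GRCh38, as for the gene positions below). It measured 108, 84.1 and 100.04 CPM in CPT2 knockdown replicates 1, 2 and 3, against 73.9, 59.3 and 71.6 CPM in NC replicates 1, 2 and 3. The groups did not overlap, and the log2 fold change was 0.52 (edgeR adjusted p = 0.338, SE 0.16, 95% interval 0.15 to 0.88). EIF3K, a peripheral subunit, measured 169.6, 103 and 139.99 CPM in the knockdown libraries, against 114, 87.3 and 97.3 CPM in NC. Knockdown replicate 2 overlapped NC, and the log2 fold change was 0.46 (edgeR adjusted p = 0.338, SE 0.20), and 0.28 without replicate 1. EIF3A, the largest subunit and a core of the complex, had the lowest value of the role. It measured 167, 345 and 271 CPM in the knockdown libraries, against 302, 369 and 346 CPM in NC. Replicates 1 and 3 were below all NC libraries and replicate 2 within their range, and the log2 fold change was -0.38 (edgeR adjusted p = 0.397, SE 0.24), -0.15 without replicate 1 and -0.64 without replicate 2. EIF3C and EIF3CL share 99.89% of their coding bases and an identical run of 1872 bases, so their separate counts are uncertain. They had almost the same values, EIF3C 361 ± 51.1 CPM in the knockdown and 305 ± 31.5 CPM in NC and EIF3CL 345 ± 28.7 CPM in the knockdown and 282 ± 20.3 CPM in NC, and counted together gave 0.27 (edgeR adjusted p = 0.344, SE 0.14). The ratio of their counts gave an exact permutation p of 0.8, or 0.889 after adjustment over the 10 ratios tested. EIF3B, EIF3D, EIF3F, EIF3H, EIF3I, EIF3L and EIF3M lay between 0.11 and 0.33, EIF3E at -0.03 and EIF3J, a loosely bound subunit, at -0.11.

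Among the 14 tested genes grouped with the eIF4F complex and its helpers, 5 had a log2 fold change above 0 and 9 below. Of these 0 of 14 were called, and EIF4A3 is grouped here as an eIF4A relative outside eIF4F. The largest differences were of opposite sign: EIF4EBP1, the binding protein that withholds eIF4E, and EIF4G2, an eIF4G relative without an eIF4E-binding site that supports initiation on selected mRNAs. EIF4EBP1 (chr8:38030341-38060365, plus strand) measured 75.2, 47.0 and 52.3 CPM in CPT2 knockdown replicates 1, 2 and 3, against 41.9, 37.5 and 39.6 CPM in NC replicates 1, 2 and 3. Every knockdown library was above every NC library, replicate 1 most, with a log2 fold change of 0.55 (edgeR adjusted p = 0.338, SE 0.20, 95% interval 0.10 to 1.01), and 0.31 without replicate 1. EIF4G2 (chr11:10797050-10809110, minus strand) measured 232, 550.4 and 426 CPM in CPT2 knockdown replicates 1, 2 and 3, against 565, 687 and 591 CPM in NC replicates 1, 2 and 3. Every knockdown library was below every NC library, with replicate 1 far below the rest, and the log2 fold change was -0.61 (edgeR adjusted p = 0.338, SE 0.27, 95% interval -1.23 to 0.01), and -0.34 without replicate 1. EIF4G3, a second eIF4G, measured 71.1, 123 and 101 CPM in the knockdown libraries, against 116, 165 and 121 CPM in NC, with knockdown replicate 2 inside the NC range and a log2 fold change of -0.44 (edgeR adjusted p = 0.344, SE 0.23), and -0.26 without either knockdown replicate 1 or NC replicate 2. EIF4G1, the main scaffold, measured 502, 461 and 497 CPM in the knockdown libraries, against 518, 499 and 485 CPM in NC. The groups overlapped and the log2 fold change was -0.04 (edgeR adjusted p = 0.856, SE 0.12, 95% interval -0.31 to 0.23). EIF4E, the cap-binding protein, measured 14.5, 30.3 and 32.3 CPM in the knockdown libraries, against 30.9, 33.4 and 29.4 CPM in NC. Its replicate 1 was lowest while replicates 2 and 3 lay within the NC range, and the log2 fold change was -0.28 (edgeR adjusted p = 0.567, SE 0.28), -0.01 without replicate 1 and -0.48 without replicate 3. EIF4A1, the most abundant eIF4F gene per length, had 313, 381 and 459 FPKM in CPT2 knockdown replicates 1, 2 and 3, against 357, 302 and 349 FPKM in NC replicates 1, 2 and 3. On counts its log2 fold change was 0.22 (edgeR adjusted p = 0.403, SE 0.14), and 0.15 without knockdown replicate 3. Its paralog EIF4A2 had a log2 fold change of -0.31, and -0.19 without knockdown replicate 1, with groups that did not overlap, and the ratio of EIF4A1 to EIF4A2 in FPKM was 7.46, 5.84 and 7.12 in CPT2 knockdown replicates 1, 2 and 3, against 5.03, 3.65 and 4.51 in NC replicates 1, 2 and 3. These ratios did not overlap, with an exact two-sided permutation p = 0.1, the smallest that 3 against 3 allows (0.25 after Benjamini-Hochberg adjustment over the 10 ratios computed). Those 10 hold the comparison of EEF1A2 with EEF1A1 in 2 forms, and the adjusted 0.25 rests on counting both. EIF4EBP2, the other abundant 4E-BP, had a log2 fold change of -0.24 with groups that did not overlap. The ratio of EIF4EBP1 to EIF4EBP2 was 3.32, 1.77 and 2.16 in the knockdown and 1.43, 1.24 and 1.44 in NC, again without overlap (exact permutation p = 0.1, adjusted 0.25). In both ratios the upper gene is richer in GC. With the GC and length offsets described below, EIF4EBP1 had a log2 fold change of -0.10 and EIF4EBP2 of 0.14, each of opposite sign to before. EIF4A1 was at 0.11 and EIF4A2 at -0.15 with these offsets. The other ratios tested within this role had larger exact permutation p, 0.4 for EIF4EBP1 over EIF4E, 1 for EIF4EBP2 over EIF4E and 0.3 for EIF4G1 over EIF4G2, or 0.5, 1 and 0.5 after adjustment. EIF4B, EIF4H, EIF4A3, EIF4E2, EIF4E3 and EIF4ENIF1 lay between -0.32 and 0.15.

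**Figure D3:**
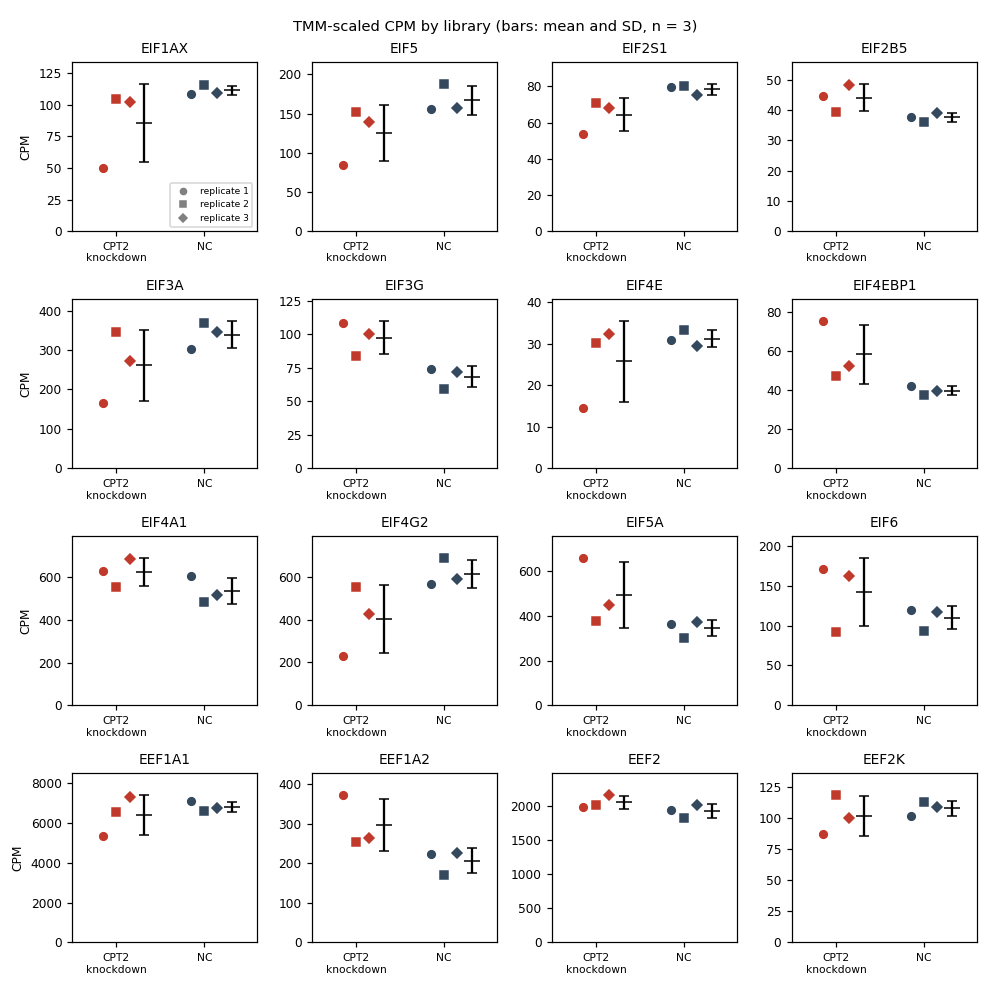
TMM-scaled CPM of 16 members by library (symbols mark replicate numbers, bars the mean and SD of 3 libraries), CPT2 knockdown left and NC right, with each axis starting at 0. EIF4EBP1, EIF3G, EIF5A and EEF1A2 do not overlap and are higher in the knockdown, while EIF4G2, EIF1AX, EIF5 and EIF2S1 do not overlap and are lower, with replicate 1 as the most extreme library in each of these 8. EIF2B5 also does not overlap and is higher in the knockdown, with replicate 3 as its highest library.

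eIF5A carries hypusine, a modified lysine found in no other protein family, and eIF6 keeps the ribosomal subunits apart. EIF5A (chr17:7306999-7312463, plus strand) measured 659.8, 378 and 448 CPM in CPT2 knockdown replicates 1, 2 and 3, against 364, 304 and 372 CPM in NC replicates 1, 2 and 3. Every knockdown library was above every NC library, with replicate 1 far above the rest. The log2 fold change was 0.51 (edgeR adjusted p = 0.338, SE 0.21, 95% interval 0.04 to 0.99), and 0.24 without replicate 1. Its copies were much lower in FPKM: EIF5AL1 averaged 2.99 ± 0.478 FPKM in the knockdown and 2.60 ± 0.183 FPKM in NC, and EIF5A2 the values given above. EIF5AL1 had a log2 fold change of 0.34 (edgeR adjusted p = 0.391, SE 0.21), and 0.11 without replicate 1. EIF5A2 was at 0.395 to 1.71 CPM in the knockdown and 1.07 to 2.33 CPM in NC, with a log2 fold change of -0.49 (edgeR adjusted p = 0.581, SE 0.52) that moved to -0.10 without knockdown replicate 1 and to -0.16 without NC replicate 2. EIF5A and EIF5AL1 share 98.92% of their coding bases, so reads may be assigned to the wrong copy, and counted together they gave 0.51 (edgeR adjusted p = 0.338, SE 0.21). EIF5A and EIF5A2 share 71.18%. The 63 coding bases around the hypusine codon (codon 50) of the GENCODE 29 transcripts on GRCh38, 5′ to 3′, are shown to give how far the 3 genes differ where hypusine forms, with capitals marking bases that differ from EIF5A.
EIF5A: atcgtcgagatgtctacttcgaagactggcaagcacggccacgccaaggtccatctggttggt
EIF5AL1: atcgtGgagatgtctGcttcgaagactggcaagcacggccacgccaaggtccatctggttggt
EIF5A2: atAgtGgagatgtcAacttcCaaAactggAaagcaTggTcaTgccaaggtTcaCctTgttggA
EIF5AL1 differs at 2 of these bases and EIF5A2 at 13. EIF6 measured 171, 92.5 and 162 CPM in the knockdown libraries, against 119.7, 93.0 and 117 CPM in NC. Knockdown replicate 2 lay just below the NC range while replicates 1 and 3 lay above it, with a log2 fold change of 0.37 (edgeR adjusted p = 0.397, SE 0.23), 0.20 without replicate 1 and 0.59 without replicate 2.

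Of the 7 elongation factor genes 0 were called, and EEF1A2 and EEF1D had the smallest p. EEF1A1 encodes the common form of eEF1A and EEF1A2 the form typical of muscle and neurons. EEF1A1 measured 5325, 6558 and 7299 CPM in CPT2 knockdown replicates 1, 2 and 3, against 7095, 6607 and 6751 CPM in NC replicates 1, 2 and 3. The lowest library was knockdown replicate 1 and the highest knockdown replicate 3, with a log2 fold change of -0.09 (edgeR adjusted p = 0.737, SE 0.16, 95% interval -0.45 to 0.26), 0.01 without the lowest library and -0.20 without the highest. EEF1A2 (chr20:63488012-63499322, minus strand) measured 372, 254 and 265 CPM in CPT2 knockdown replicates 1, 2 and 3, against 224, 171 and 225 CPM in NC replicates 1, 2 and 3. Every knockdown library was above every NC library, with a log2 fold change of 0.52 (edgeR adjusted p = 0.338, SE 0.19, 95% interval 0.09 to 0.95), and 0.32 without replicate 1. In FPKM, EEF1A2 made up 7.73%, 5.02% and 4.93% of the 2 genes' sum in the knockdown, against 3.98%, 3.27% and 4.48% in NC. The shares did not overlap (exact two-sided permutation p = 0.1, the smallest possible, BH-adjusted 0.25 over 10 ratios). The 10 hold this comparison in 2 forms, as the share and as EEF1A2 over EEF1A1, and the adjustment counted both. The coding bases of the 2 genes are 78.02% identical, in runs of at most 20 bases. With the GC and length offsets described below, the log2 fold change was -0.01 for EEF1A2 (66.4% GC) and -0.10 for EEF1A1 (49.2% GC). EEF1D, a nucleotide exchange subunit, measured 436, 258 and 409 CPM in the knockdown libraries, against 262, 211 and 298 CPM in NC. Knockdown replicate 2 lay within the NC range, and the log2 fold change was 0.52 (edgeR adjusted p = 0.338, SE 0.22). EEF1G, the structural subunit, was the second most abundant member, with 1040.4 ± 145 FPKM in the knockdown and 861 ± 145 FPKM in NC. It had a log2 fold change of 0.40 (edgeR adjusted p = 0.338, SE 0.19) on counts, and 0.26 without NC replicate 2. Its exons lie in the readthrough gene AP002990.1 over 99.93% of their bases, and the ratio of its counts to those of AP002990.1 ran from 8.60 to 9.92 in the knockdown and from 4.03 to 9.58 in NC (exact permutation p = 0.4, adjusted 0.5). Counted together, the log2 fold change was 0.35 (edgeR adjusted p = 0.338, SE 0.17). EEF1B2, the other exchange subunit, was at 0.10, and EEF1E1, a component of the multisynthetase complex, at -0.09. EEF2, the translocase, measured 1984, 2024 and 2162 CPM in the knockdown libraries, against 1940.1, 1823 and 2021 CPM in NC. The groups overlapped, and the interval of its log2 fold change, 0.09 (edgeR adjusted p = 0.668, SE 0.13, 95% interval -0.19 to 0.38), leaves out 1 and -1 on the log2 scale.

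Several of these mRNAs start with a terminal oligopyrimidine (TOP) tract, a C followed by pyrimidines at the cap that LARP1 binds when mTORC1 is inactive. Of 11 members known as TOP mRNAs, 0 were called, 6 had a log2 fold change above 0 and 5 below, and the median was 0.09, beside 0.11 for the other 52 tested members. With the GC and length offsets described below, 4 of the 11 were above 0 and 7 below, with a median of -0.03, beside 37 above and 15 below with a median of 0.11 for the other 52. The 30 bases from 10 before to 20 after the annotated start (RefSeq, GRCh38.p14, gene strand, 5′ to 3′) are shown for 6 of them. These 6 give the element and were chosen for holding the tract defined below, shown in capitals.
EEF1A1 (chr6:73521013-73521042, minus strand): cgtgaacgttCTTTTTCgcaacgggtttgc
EEF1B2 (chr2:206159885-206159914, plus strand): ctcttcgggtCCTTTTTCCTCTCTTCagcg
EEF2 (chr19:3985444-3985473, minus strand): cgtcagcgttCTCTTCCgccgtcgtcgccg
EIF3F (chr11:7987327-7987356, plus strand): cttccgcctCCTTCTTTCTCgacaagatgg
EIF4B (chr12:53006446-53006475, plus strand): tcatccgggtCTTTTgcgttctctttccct
EIF2S3 (chrX:24054946-24054975, plus strand): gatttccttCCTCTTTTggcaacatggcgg
A tract was a C followed by at least 4 further C or T, on the gene strand alone, beginning within 2 bases of the start. It was present in 6 of the 7 known TOP members in the promoter table, with EEF1G as the exception. The other members there had it in 11 of 47 (23.4%), all members in 17 of 54 (31.48%) and all 27305 genes in 13.03%. The members shown had log2 fold changes of -0.09 (EEF1A1), 0.10 (EEF1B2), 0.09 (EEF2), 0.27 (EIF3F), -0.03 (EIF4B) and -0.25 (EIF2S3), values on both sides of 0 for genes that share the element.

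The modifiers of the elongation factors had 6 of 7 log2 fold changes above 0 (0 of 7 called; median 0.30, and 0.19 without knockdown replicate 1). EEF1AKMT1, a methyltransferase acting on a lysine of eEF1A, had the highest value of all members. It measured 4.70, 3.96 and 3.60 CPM in CPT2 knockdown replicates 1, 2 and 3, against 2.93, 2.30 and 1.34 CPM in NC replicates 1, 2 and 3. Every knockdown library was above every NC library, at levels below 5 CPM, with a log2 fold change of 0.90 (edgeR adjusted p = 0.338, SE 0.32, 95% interval 0.18 to 1.61). EEF2KMT, which methylates eEF2, measured 21.6, 12.7 and 14.6 CPM in the knockdown libraries, against 13.3, 10.1 and 10.5 CPM in NC. Knockdown replicate 2 overlapped NC, with a log2 fold change of 0.53 (edgeR adjusted p = 0.338, SE 0.24) that was 0.26 without replicate 1. Of its exon bases, 29.25% overlap ALG1 on the opposite strand, whose reads cannot be told apart without strand. EEF1AKNMT, a dual methyltransferase of eEF1A, was the most abundant of these per length, at 17.0 ± 3.17 FPKM in the knockdown and 17.3 ± 0.484 FPKM in NC, with a log2 fold change of 0.11 (edgeR adjusted p = 0.725, SE 0.17) on counts, from -0.003 to 0.24 when 1 library was left out. EEF2K, the kinase that inactivates eEF2, measured 87.1, 119 and 99.97 CPM in the knockdown libraries, against 102, 113 and 109 CPM in NC. The groups overlapped, with a log2 fold change of -0.08 (edgeR adjusted p = 0.760, SE 0.16), 0.01 without replicate 1 and -0.21 without replicate 2. The ratio of EEF2K to EEF2 in FPKM gave an exact permutation p of 0.3, or 0.5 after adjustment.

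Differences among the members followed transcript GC content. Across the 63 members, Spearman's rho between the log2 fold change and GC content was 0.73, a description over genes that share the same 6 libraries, beside 0.70 for all annotated genes. With transcript length it was -0.53, beside -0.50 for all annotated genes. The 15 members under 42% GC had a median log2 fold change of -0.11, beside -0.37 for all annotated genes of that range. The 23 from 42% to 50% had a median of 0.07, beside -0.16, and the 25 over 50% a median of 0.27, beside 0.27. EIF4EBP1, EEF1A2 and EEF1D, at 65.5%, 66.4% and 63.2%, were among the richest in GC, and EIF1AX at 35.1% and EIF4E at 39.0% among the poorest. The relation was unequal between libraries: for the difference from the NC mean, knockdown replicates 1, 2 and 3 gave rho values of 0.78, 0.065 and 0.72. NC libraries, each set against the other NC libraries, gave 0.49, -0.69 and 0.41 for replicates 1, 2 and 3. Offsets for GC content and length in each library brought rho with GC content to -0.20 in the members and 0.01 in all annotated genes. With length, rho became 0.33 in the members, of opposite sign to before, and -0.0004 in all annotated genes. The offsets were fitted across the genes of these same libraries, so values near 0 over all annotated genes were built in. The fit had no term for the groups, so it would also remove a knockdown difference that follows GC content or length. The offsets moved EIF4EBP1 to -0.10, EIF3G to 0.04, EIF5A to 0.14, EEF1A2 to -0.01, EEF1D to -0.03 and EIF3K to 0.08. EIF6 went to -0.12, EIF2S1 to 0.16, EIF1AX to 0.08, EIF4E to 0.20 and EIF4G2 to -0.35, while EEF1AKMT1 stayed at 0.79. EIF3H and EIF3M became 0.51 and 0.66, against 0.12 and 0.17 without offsets. EIF2B2 and EIF5AL1 became 0.47 and 0.63, against 0.22 and 0.34. With offsets 0 of 63 members were called (background 0.0196%), 7 had an unadjusted p below 0.05 (11.1%, beside 11.1% of all genes), and the members' median was 0.10. Of those 7, 6 were higher in the knockdown (background 6.04%) and 1 lower (5.04%). The 6 were EIF2B2, EIF2S2, EIF3H, EIF3M, EEF1AKMT1 and EIF5AL1, and the 1 was EIF4G2. Only EEF1AKMT1 was also among the 7 without offsets. With offsets 41 of 63 members lay above 0, beside 50.8% of all genes.

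**Figure D4:**
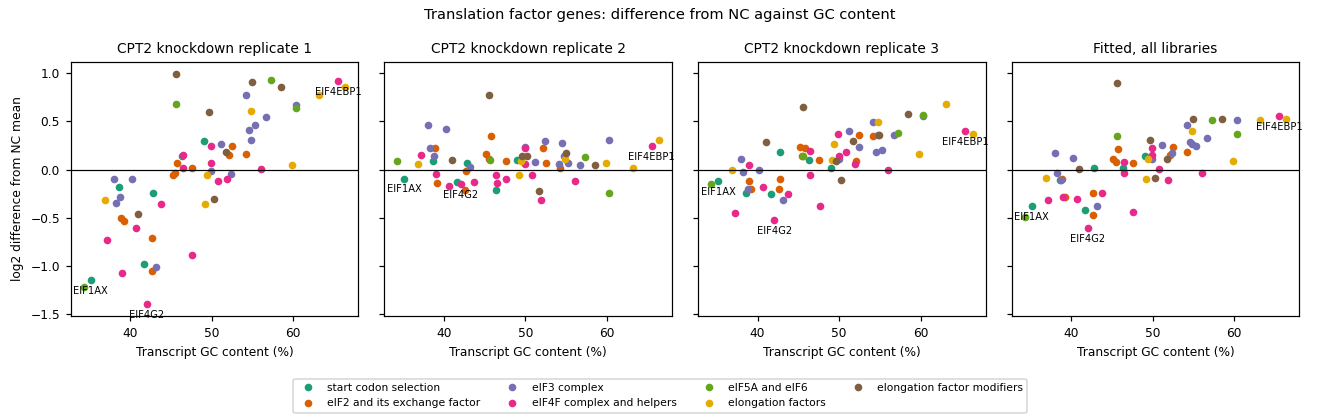
Difference from the NC mean (log2 scale) against the GC content of the matched transcript, 1 point per tested member coloured by role, for each CPT2 knockdown library and, at the right, for the fitted log2 fold change. Points rise with GC content in replicates 1 and 3, and in replicate 2 they lie near 0 along the whole axis.

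Among the related genes outside the set, 0 of each list examined were called. Of the 6 eIF2 alpha kinases and phosphatase subunits 0 were called, with 2 log2 fold changes above 0 and 4 below: EIF2AK3 (PERK, the kinase of the unfolded protein response) had 21.2 ± 8.97 CPM in the knockdown and 34.2 ± 3.11 CPM in NC, -0.69 on the log2 scale (edgeR adjusted p = 0.338), -0.40 without knockdown replicate 1 and -0.44 with offsets. PPP1R15B, a phosphatase subunit acting on eIF2 alpha, had 155 ± 58.3 CPM in the knockdown and 246 ± 42.2 CPM in NC, -0.66 (edgeR adjusted p = 0.338), -0.40 without knockdown replicate 1 and -0.36 with offsets. Of the 12 genes listed for mTORC1 and the cap-binding kinases, not all of them kinases, 0 were called, 6 on each side of 0. MTOR had 94.7 ± 5.94 CPM in the knockdown and 128 ± 10.6 CPM in NC, -0.44 (edgeR adjusted p = 0.338), and -0.29 with offsets. In the other direction RPS6KB2 had 0.48 and MLST8 0.46 (edgeR adjusted p = 0.338 for each), and 0.01 and -0.07 with offsets. The hypusine and diphthamide enzymes had 6 of 9 above 0, the mitochondrial translation factors 3 of 9, the poly(A)-binding proteins and partners 1 of 5, and the termination and recycling factors 1 of 7. With the GC and length offsets these were 4 of 9, 4 of 9, 3 of 5 and 5 of 7, in the same order, while the eIF2 alpha and mTORC1 lists had 2 of 6 and 6 of 12 above 0 either way. DOHH, the second enzyme of hypusine synthesis, had 13.4 ± 3.62 CPM in the knockdown and 7.94 ± 1.52 CPM in NC, 0.75 (edgeR adjusted p = 0.338), and 0.18 with offsets. Of 5 further known TOP mRNAs 0 were called and 4 were above 0, with and without offsets.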

How the data were processed

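Per the labels' protocols, poly(A) RNA of HCT116 cells was sequenced from 3 CPT2 knockdown and 3 NC libraries. The authors deposited unnormalized counts of reads for each gene, FPKM, and the p-value, log2 fold change and call of their DESeq2 comparison, per the file headers. The submitters' processing notes name GRCh38, HISAT2, TopHat2, Bowtie2, StringTie, DESeq2 and edgeR, with no roles. How strand was counted is not given in the sources read here.

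Counts of all genes were tested with edgeR 4.0.16 in R 4.3.3 (filterByExpr, TMM, robust quasi-likelihood F-test, Benjamini-Hochberg threshold 0.05). DESeq2 1.42.0 and limma 3.58.1 were alternatives. Fold changes are knockdown over NC. Differences per library used log2(CPM + 0.5). Offsets came from a loess (span 0.5) on GC content and length of the GENCODE 29 transcript nearest to the length that counts and FPKM imply, a choice made after seeing the data. Scripts were tested on simulated data. Named genes were, in each role, the member with the highest FPKM and those with the smallest and second smallest p, and 13 central factors. Members and lists were chosen with earlier results of these data known. Other genes given with values, such as EIF4G3, EIF4A2, EIF4EBP2, EEF1G and the related genes outside the set, were chosen after their values were seen.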

Additional observations from a re-analysis of the deposited data

How the results depend on the processing

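The members' median was positive (log2) in every alternative but 2, and the count of members called was 0 in all fits without a replicate block. Over the 26 named genes and their alternatives, 437 of 495 values kept direction and side of the threshold, 57 changed sign in 15 genes, none of them called, and 1 became a call. DESeq2 called 13 genes of all, limma-voom 1, the stricter filter 1 and limma-trend on log2(FPKM + 1) 0, beside 2 in the fit reported (8 members and 14% of all genes had an unadjusted p below 0.05 by limma-trend). Values after gene names are log2 fold changes that changed sign, and the cause was not tested. Under library size alone the members' median was -0.0352, with sign changes among the 26 named genes in EEF1AKNMT -0.0352, EEF2 -0.0432 and EIF1 -0.13. Limma-trend gave a median of -0.0310 and EEF1AKNMT -0.0408, EEF2 -0.0310 and EIF1 -0.14.

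GC and length offsets changed the sign of EEF1A2 -0.0117, EEF1D -0.0338, EEF2 -0.14, EEF2K 0.0952, EIF1AX 0.0820, EIF2S1 0.16, EIF4E 0.20, EIF4EBP1 -0.0984 and EIF6 -0.12. Taken from the longest transcript, an alternative chosen after seeing the data, they gave 11 members at an unadjusted p below 0.05 (12.7% of all genes), EEF1A1 0.0993, EEF2 -0.19, EEF2K 0.0644, EIF1AX 0.0353, EIF2S1 0.11, EIF4E 0.17, EIF4EBP1 -0.11 and EIF6 -0.0867, and 0.00952 for CPT2. Without CPT2 knockdown replicate 1 they gave 4 genes called, 4 such members (7.42% of all genes), and EEF2 -0.0113, EEF2K 0.15, EIF1 -0.0553, EIF1AX 0.10, EIF2S1 0.0124, EIF2S3 0.0137, EIF3A 0.0645, EIF4E 0.30, EIF4EBP1 -0.0886, EIF5 0.0132 and EIF6 -0.13.

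The labels do not say whether the replicate numbers pair the libraries. Deviations of same-numbered libraries from their group means correlated at 0.33, 0.49 and 0.006. Knockdown replicates 1 and 2 correlated best with the NC library of their own number, and knockdown replicate 3 with NC replicate 2 (0.025). With the number as a replicate block, 633 genes (4.14%), 1 member (EIF4G2, log2 fold change -0.69, edgeR adjusted p = 0.0497; 0.0497 to 0.772 over its alternatives) and 21 members at an unadjusted p below 0.05 (30.6% of all genes) were counted. The block with offsets gave 243 genes (1.59%), 3 members (EIF2B2, EIF3H and EIF3M) and 13 members (18.8%), and EEF1A2 -0.0178, EEF1D -0.0368, EEF2 -0.16, EEF2K 0.0928, EIF1AX 0.0828, EIF2S1 0.15, EIF4E 0.19, EIF4EBP1 -0.0975 and EIF6 -0.13. With longest-transcript offsets it gave 431, 4 (EIF2D, EIF3H, EIF3M and EIF3F) and 18 (21.7%), and EEF1A1 0.0975, EEF2 -0.20, EEF2K 0.0606, EIF1AX 0.0350, EIF2S1 0.11, EIF4E 0.16, EIF4EBP1 -0.11 and EIF6 -0.0981.

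Leaving out each library in turn gave 1 to 5 genes called, 0 members called and 1 to 22 members at an unadjusted p below 0.05, beside 3.23% to 35.9% of all genes. The genes whose sign changed ranged over -0.20 to 0.0135 for EEF1A1, -0.21 to 0.00791 for EEF2K, -0.0581 to 0.12 for EIF1 and -0.00272 to 0.24 for EEF1AKNMT. Libraries held 28353790 to 29449380 counts, of which EIF4EBP3, the scarcest member with counts, took 5 to 20.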

Other observations

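Deposited counts and deposited FPKM gave different pictures for EIF4B, a helper of the eIF4A helicase. It measured 179, 204 and 199 FPKM in CPT2 knockdown replicates 1, 2 and 3, against 252, 218 and 259.6 FPKM in NC replicates 1, 2 and 3, groups that did not overlap, with a log2 ratio of the FPKM means of -0.33. In TMM-scaled CPM it measured 888, 848 and 848 CPM in the knockdown libraries, against 894, 876 and 869.7 CPM in NC, groups that overlapped, with a log2 fold change of -0.03. EEF1AKMT3, a methyltransferase of eEF1A, had a log2 ratio of FPKM means of 0.09 and a log2 fold change of 0.30 in counts. Scaled by library size alone, the counts gave -0.17 for EIF4B and 0.15 for EEF1AKMT3, each between the values of the 2 scales. These genes were chosen after their values were seen, for the gap between the scales, and the cause was not tested.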
